A study of Drosophila melanogaster with 12 samples.

Results

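The genes of oxidative phosphorylation were examined in the forelegs of male Drosophila melanogaster. Members were all genes whose symbol begins with ND-, mt:ND, mt:Co, mt:ATPase, mt:Cyt-b, COX followed by digits, UQCR-, Sdh or ATPsyn, which gave 101 of the 17807 genes in the table. Of these, 88 lie in the nucleus and 13 on the mitochondrial genome. The rule used names alone and no measured value. It missed subunits with other names, such as blw, the alpha subunit of ATP synthase, and it took in Sdhaf3, an assembly factor of complex II.

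The RNA of male forelegs was sequenced in 12 libraries. CO13N, CS, RG11N and a hybrid of CS with CO13N each gave 3 biological replicates. The submitters call CO13N and the hybrid selective, and CS and RG11N promiscuous. The labels name no further allele or agent, no age, and neither the direction nor the generation of the cross, so the source of the hybrid's mitochondrial genome is not given. Whether replicates came from separate rearings is not given either, so p-values measure the spread between these libraries.

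Oxidative phosphorylation is the last stage of respiration, carried out in the inner mitochondrial membrane. Complexes I and II pass electrons from NADH and succinate to ubiquinone, complex III passes them to cytochrome c, and complex IV passes them to oxygen. Complexes I, III and IV pump protons, and complex V, ATP synthase, uses the returning protons to make ATP. Complex II is encoded wholly in the nucleus, while the other complexes need subunits from both genomes, and muscle is a tissue rich in all of them.

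Total counts ranged from 26374831 to 36034966 per library. Levels are given as CPM, counts scaled to a common library size. Single genes were scaled with TMM factors and sums with total counts, and 3 counts in a library correspond to 0.0833 to 0.114 CPM. The foreleg holds muscle and neurons, and the summed level of 19 muscle markers, among them myosin heavy chain, ranged from 1860 to 20441 CPM, while 8 neuronal markers summed to 4674 to 7796 CPM. Markers of the antenna, a different organ, were also found. The sum of 9 such genes was 127 to 603 CPM in 7 libraries, and it was 843, 2778 and 1502 CPM in CS replicates 1 to 3, 1485 CPM in RG11N replicate 3 and 2846 CPM in hybrid replicate 3. No library held more than 0.842 CPM of testis and accessory gland markers or 3.41 CPM of ovary markers in all. These are bulk samples, so fewer cells of a type and less RNA per cell cannot be told apart.

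The nuclear members fell into levels far apart. A line at 3 CPM, chosen after the values were seen, left 62 members above it and 26 below, with no mean between 0.78 and 3.37 CPM. The 62 abundant members had means of 3.37 to 1684 CPM. Of the other 26, 15 had means of 0.0445 to 0.78 CPM and 11 were listed at 0 in every library.

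Per kilobase of exon, which allows levels to be compared between genes, the median of the abundant nuclear members was higher in each successive complex. The medians were 97.0 CPM per kb over 32 members of complex I, 110 over 5 of complex II, 140 over 5 of complex III, 250 over 9 of complex IV and 272 over 11 of complex V. Some subunits are present in several copies in each complex, and the gene highest per kilobase was one of these. ATPsynC, whose product forms the rotor ring of ATP synthase, stood at 901.6 CPM per kb, and ATPsynbeta, a catalytic subunit of the same enzyme, at 537.6 CPM per kb. ATPsyndelta, of the central stalk, was the lowest of the abundant complex V members at 41.4 CPM per kb. The length used is that of all annotated exons, 3817 bases for ATPsyndelta, whose mean was 158 CPM. ATPsynCF6, with 704 bases, had a mean of 170 CPM. The part of annotated length in this order was not tested.

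Within complex I, ND-MLRQ was the highest at 309 CPM per kb and ND-MWFE, a small accessory subunit, the lowest abundant member at 12.6 CPM per kb. The human counterpart of ND-MLRQ, NDUFA4, has since been assigned to complex IV. In complex II the iron-sulfur subunit SdhB led at 136 CPM per kb, and the assembly factor Sdhaf3 was far below at 7.17 CPM per kb. In complex III the core protein UQCR-C1 stood at 201 CPM per kb and UQCR-11 at 80.9 CPM per kb. In complex IV the range ran from COX6B at 394 CPM per kb to COX7AL2, a second version of the small subunit COX7A, at 19.0 CPM per kb.

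**Figure D1:**
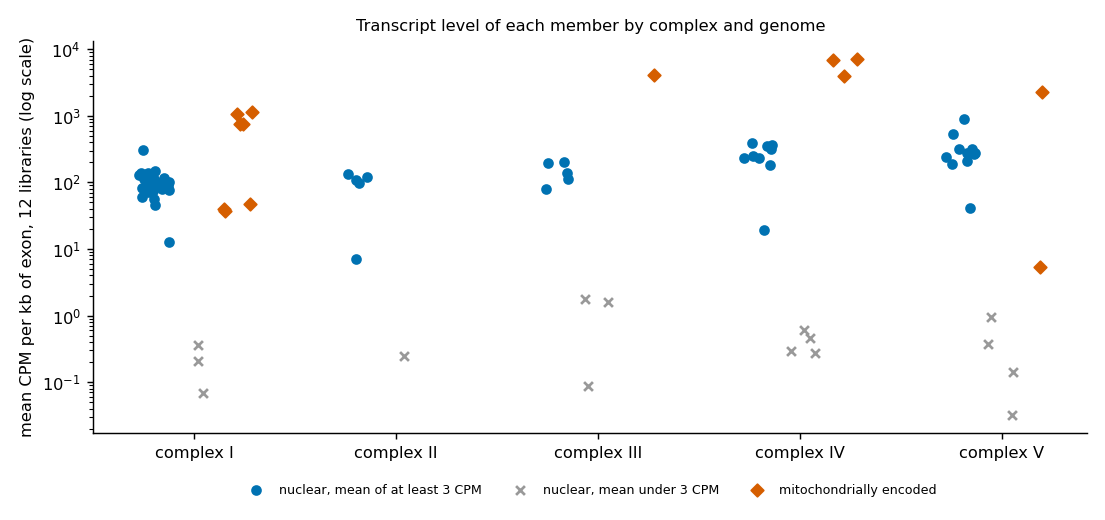
Mean level of each member over 12 libraries in CPM per kb of exon, on a log scale, by complex, with nuclear members above and below 3 CPM and mitochondrially encoded members drawn apart. The 11 members listed at 0 are not drawn. Most mitochondrially encoded members lie above the nuclear members of their complex, while mt:ND2, mt:ND4L, mt:ND6 and mt:ATPase8 lie below the nuclear medians.

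All 15 scarce nuclear members carry symbols ending in L, L1 or L2, which mark copies of another subunit gene. They were ND-49L, ND-51L1, ND-51L2, SdhBL, UQCR-6.4L, UQCR-11L, UQCR-14L, COX4L, COX6CL, COX7AL, COX7CL, ATPsynbetaL, ATPsynCF6L, ATPsynepsilonL and ATPsynGL. Their counts summed over 12 libraries were 17 to 291, and a scarce member had no count in 0 to 10 of the libraries, with a median of 5. The highest single value was 74 counts, for SdhBL. COX7AL2 was the only copy of this kind in the abundant class. Only 10 of the 15 passed the filter on low counts.

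The 11 members listed at 0 comprised 8 copies (ND-20L, ND-24L, ND-B14.5AL, SdhAL, SdhCL, COX5BL, COX6AL and COX6AL2) and ND-B8, ND-MNLL and UQCR-14. Several of these share their sequence with a neighbour in the annotation. ND-MNLL occupies the same exons as CG45089 on the same strand, and both were listed at 0. All exonic bases of UQCR-14 lie under CG32576 on the opposite strand, and CG32576 had 7052 counts. Exons of COX5BL lie wholly under Trmt6 on the opposite strand. How reads on 2 genes were handled is not given, so a 0 in these genes is not a measured level. ND-B8 has 84.6% of its exonic bases to itself and was still listed at 0.

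The 13 mitochondrially encoded members also covered a wide range of levels. The subunits of the catalytic core of complex IV were highest, with mt:CoIII at 7105, mt:CoI at 6906 and mt:CoII at 3961 CPM per kb. mt:Cyt-b, the cytochrome b of complex III, stood at 4059 CPM per kb and mt:ATPase6, of the proton channel of ATP synthase, at 2259 CPM per kb. Among the complex I subunits, mt:ND1 had 1161, mt:ND4 1053, mt:ND5 761 and mt:ND3 756 CPM per kb, and mt:ND6, mt:ND2 and mt:ND4L had 46.9, 39.5 and 37.3 CPM per kb. mt:ATPase8 was lowest at 5.36 CPM per kb. It overlaps mt:ATPase6 in the annotation, and the RNA was polyA-selected. The part of capture and read assignment in the order of these levels was not tested.

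Across libraries the nuclear members moved over a modest range. The summed level of the 88 genes was 14854, 10984 and 9911 CPM in CO13N replicates 1 to 3, and 12077, 9876 and 12337 CPM in the hybrid. It was 14730, 13134 and 9540 CPM in CS and 9050, 10254 and 11202 CPM in RG11N. The mean was 12468 ± 2658 CPM for CS, 11916 ± 2600 for CO13N, 11430 ± 1352 for the hybrid and 10169 ± 1079 for RG11N (SD, n = 3 each), and the strains overlapped. Within CO13N and within CS the libraries lay farther apart than any pair of strain means.

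The mitochondrially encoded members summed to more than the nuclear ones in every library. Their sum was 29771, 14558 and 26762 CPM in CO13N and 23908, 25008 and 26627 CPM in the hybrid. It was 39419, 38448 and 29764 CPM in CS and 25924, 34178 and 33890 CPM in RG11N. CO13N replicate 2 was the lowest, and its 14558 CPM was far from the 26762 and 29771 CPM of the other CO13N libraries. The mean was 35877 ± 5316 CPM for CS, 31331 ± 4685 for RG11N, 25181 ± 1368 for the hybrid and 23697 ± 8056 for CO13N (SD, n = 3 each). The hybrid did not overlap CS, and the highest CO13N library, at 29771 CPM, was level with the lowest CS library, at 29764 CPM.

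**Figure D2:**
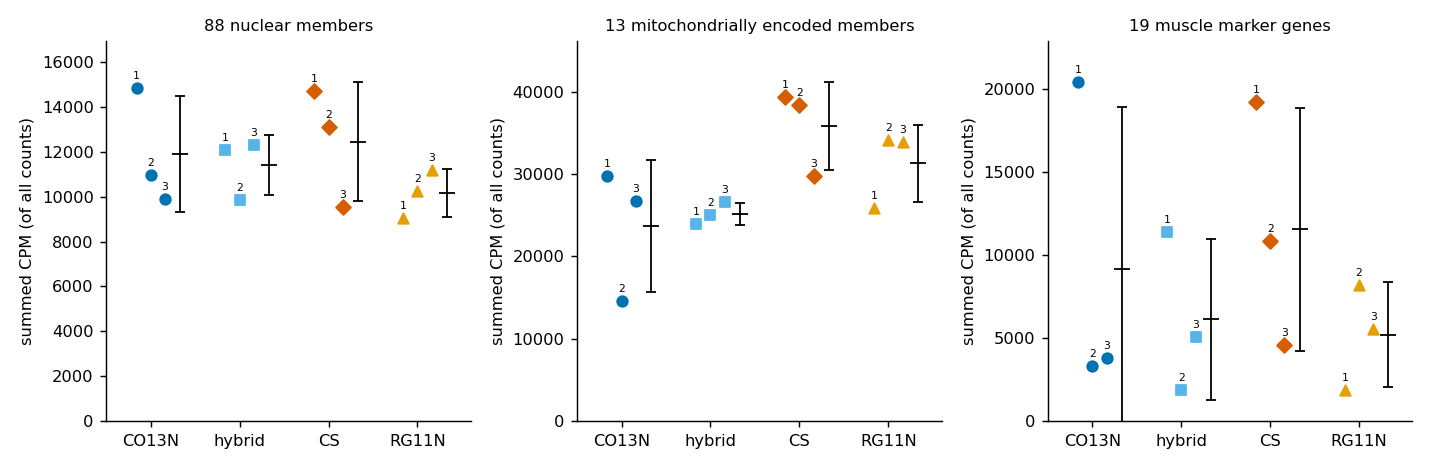
Summed CPM of the 88 nuclear members, the 13 mitochondrially encoded members and the 19 muscle markers in each library, labelled by replicate number, with the strain mean and SD of 3 libraries beside the points (bars cut at 0 where the SD exceeds the mean). CO13N replicate 1 and CS replicate 1 are highest for nuclear members, at 14854 and 14730 CPM, and also for muscle markers, at 20441 and 19213 CPM.

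Among the 62 abundant nuclear members, the highest library was CO13N replicate 1 for 27, CS replicate 1 for 20 and CS replicate 2 for 11. The lowest library was RG11N replicate 1 for 35. The ratio of the highest to the lowest library had a median of 1.85 and ran from 1.38 for COX7A, a small subunit of complex IV, to 29.97 for COX7AL2. The SD of log2 CPM within strains had a median of 0.288 for these members, against 0.222 for the 6616 genes with a mean of at least 10 CPM.

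The summed muscle markers were 20441, 3325 and 3807 CPM in CO13N and 11423, 1869 and 5075 CPM in the hybrid. Values were 19213, 10842 and 4585 CPM for CS and 1860, 8209 and 5562 CPM for RG11N. Within CO13N and CS the library with most muscle marker RNA also had the highest nuclear sum. Within the hybrid and RG11N it did not, but in these strains and in CS the library with the least muscle marker RNA had the lowest nuclear sum.

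To set the members beside muscle content, the change of every gene with the log2 sum of the muscle markers was fitted within strains in edgeR over all 12 libraries, a fit added after the data were seen. Of the 72 tested nuclear members, 16 rose with the muscle markers and 0 fell at a Benjamini-Hochberg adjusted p under 0.05, while over all 10996 tested genes 1.93% rose and 0.0182% fell. The median slope of the nuclear members was 0.17 on the log2 scale for each log2 unit of muscle marker RNA, against -0.02 for all tested genes, and 67 of 72 slopes were above 0. The count rested strongly on single libraries, being 4 without CO13N replicate 1 and 32 without hybrid replicate 1. Over all tested genes, 1.15% rose without CO13N replicate 1 and 2% without hybrid replicate 1. The median slope of the nuclear members stayed between 0.16 and 0.225 with each library left out.

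Complex V held more of the genes that rose than any other complex. ATP synthase contributed 7 of its 13 tested members, complex I 4 of 34, complex IV 3 of 12, and complexes II and III 1 each of 6 and 7. These shares were not compared with a test.

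ATPsynbeta, on chromosome 4 at 1031484 to 1034917 on the plus strand (dm6), showed the pattern in the catalytic part of ATP synthase. Its level was 1888, 1039 and 1009 CPM in CO13N and 1336, 986 and 1213 CPM in the hybrid. CS had 1836, 1649 and 1054 CPM, and RG11N 885, 1138 and 1359 CPM. CO13N replicate 1 and CS replicates 1 and 2 were the highest libraries, and the strains overlapped. Its slope on muscle markers was 0.28 ± 0.05 (SE, adjusted p = 0.00106, edgeR).

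Other ATP synthase members rose with smaller slopes. ATPsyndelta had a slope of 0.27 (adjusted p = 0.000828, edgeR), ATPsynC of 0.23, ATPsynD of 0.22, ATPsynO of 0.22, ATPsyngamma of 0.21 and ATPsynB of 0.20. ATPsyngamma, the shaft that turns within the catalytic head, ranged from 186 CPM in RG11N replicate 1 to 387 CPM in CS replicate 1.

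In complex III the ubiquinol-binding subunit UQCR-Q had a slope of 0.38 ± 0.05 (adjusted p = 2.92e-05, edgeR), the lowest p among the members. It stood at 297, 129 and 148 CPM in CO13N and 195, 132 and 180 CPM in the hybrid. The CS libraries gave 270, 220 and 137 CPM and the RG11N libraries 127, 220 and 241 CPM. The highest library of CO13N, of the hybrid and of CS was replicate 1, the one with most muscle marker RNA in each. The core protein UQCR-C1 was not called, with a slope of 0.20.

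SdhC, a membrane anchor of complex II, had a slope of 0.29 (adjusted p = 0.0051, edgeR). Its level was 153, 97.4 and 76.5 CPM in CO13N and 108, 95.6 and 130.2 CPM in the hybrid. Values were 149, 127 and 78.4 CPM for CS and 65.5, 112 and 103.7 CPM for RG11N. In complex I, ND-13B, ND-B14, ND-ACP and the flavin-binding ND-51 rose with slopes of 0.19 to 0.25. In complex IV, COX4 and COX5B, both conserved nuclear subunits, had slopes of 0.19 and 0.23.

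COX7AL2 had the steepest slope among the abundant members, at 1.08 ± 0.185 (SE, adjusted p = 0.0136, edgeR). It lies on chromosome arm 2L at 2192525 to 2197912 on the minus strand (dm6). Its level was 45.2, 3.5 and 8.1 CPM in CO13N and 17.4, 6.5 and 12.8 CPM in the hybrid. CS had 41.1, 31.0 and 10.03 CPM, and RG11N 1.5, 18.4 and 19.3 CPM. Its libraries of the hybrid, of CO13N and of CS ranked as their muscle marker sums did, and in RG11N replicates 2 and 3 were in the other order. COX7A, the gene it resembles, stayed between 140 and 194 CPM in all 12 libraries and had a slope of 0.002.

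**Figure D3:**
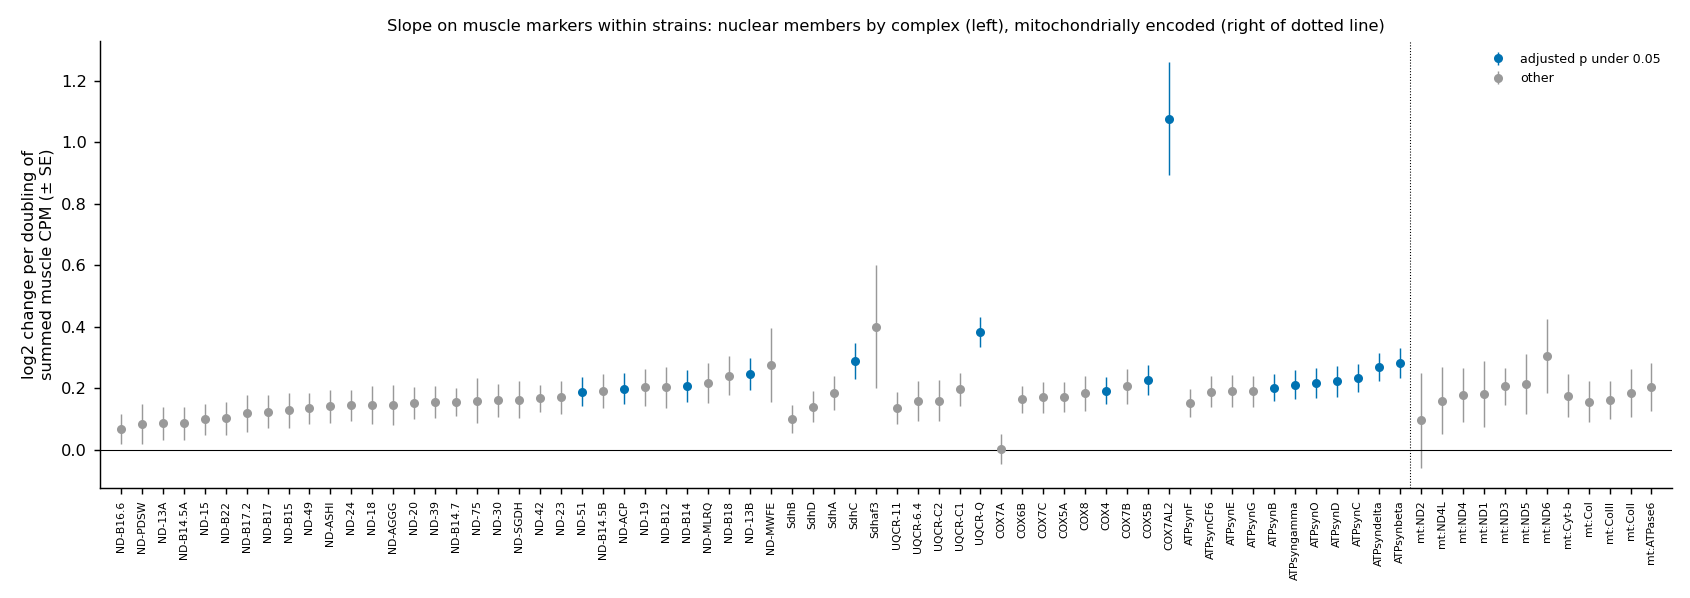
Slope of each abundant member on the summed muscle markers within strains (log2 change for each log2 unit, ± SE, 12 libraries), nuclear members ordered by complex and mitochondrially encoded members at the right. Members with an adjusted p under 0.05 are in blue; COX7AL2 stands apart at 1.08 and COX7A lies at 0.002.

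The mitochondrially encoded members had slopes of 0.085 to 0.305 with a median of 0.18, all 13 above 0. None had an adjusted p under 0.05 in edgeR, and 7 had an unadjusted p under 0.05. Without hybrid replicate 1, 4 were called and 12 had an unadjusted p under 0.05. That unadjusted count was 1 without CO13N replicate 1 and 2 without RG11N replicate 1. In each of these fits 12 of 13 slopes were above 0.

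The study's main comparison set the selective strains, CO13N and the hybrid, against the promiscuous strains, CS and RG11N. For nuclear members no difference was detected, and the mitochondrially encoded members had log2 fold changes below 0, with 1 of them past the threshold. Over all 10996 tested genes 3.92% were called, 1.32% as lower. Unadjusted, 16.6% of all genes had a p under 0.05, 7.19% as lower.

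None of the 72 tested nuclear members was called by edgeR or by DESeq2, and 1 had an unadjusted p under 0.05 in edgeR. That gene was ND-B16.6, an accessory subunit of complex I, named after its value was seen. Its selective minus promiscuous difference was 0.24 ± 0.10 on the log2 scale (adjusted p = 0.217, edgeR). The median log2 fold change of the nuclear members was 0.02, and that of all tested genes 0.01. The sign of the nuclear median rested on single libraries, at -0.09 without CO13N replicate 1, -0.08 without CS replicate 3, -0.07 without RG11N replicate 1 and -0.04 without hybrid replicate 3. Of the core subunits, ND-75 differed by 0.21 ± 0.18 and ATPsynbeta by -0.07 ± 0.196, neither beyond the spread of libraries.

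All 13 mitochondrially encoded members had a log2 fold change below 0, with a median of -0.55 and a range of -0.97 to -0.31, against a median of 0.01 for all tested genes. They come from one small genome and are not independent of each other. Unadjusted p was under 0.05 for 9 of them in edgeR. This count was 2 with the antennal sum in the model, 5 with the replicate block, 5 without CS replicate 1, RG11N replicate 2 or RG11N replicate 3, and 6 without hybrid replicate 1 or 2. DESeq2 called 6. All 13 stayed below 0 with each library left out, with medians of -0.40 to -0.675.

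mt:ND4L, a small membrane subunit of complex I, was the member called. It lies at 9545 to 9835 on the minus strand of the mitochondrial genome, and shares a single base with mt:ND4. Its level was 9.2, 3.9 and 6.2 CPM in CO13N and 6.6, 8.6 and 9.7 CPM in the hybrid. It was 12.8, 17.5 and 15.5 CPM in CS and 8.7, 15.9 and 15.7 CPM in RG11N. All 6 selective libraries were below the 5 highest promiscuous libraries, and RG11N replicate 1 fell among them. mt:ND4L had 3968 counts in all, against 518932 for mt:ND4. The part of capture and read assignment in the mt:ND4L difference was not tested.

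The averaged difference of mt:ND4L was -0.97 ± 0.228 on the log2 scale (SE, adjusted p = 0.0181, edgeR). The adjusted p rose to 0.0535 without CO13N replicate 2 and to 0.0501 without hybrid replicate 1. The antennal markers summed to 152 to 315 CPM in CO13N and to 127, 141 and 2846 CPM in the hybrid. The sums were 843 to 2778 CPM in CS and 362 to 1485 CPM in RG11N, so the selective and promiscuous libraries overlapped. Of the 9 antennal markers, 8 had log2 fold changes below 0 in the averaged comparison and 0 were called in edgeR. With the log2 sum of the antennal markers in the model, the mt:ND4L difference was -0.79 with an adjusted p of 0.275 in edgeR. This alternative was added after the data were seen. Over all genes, 186 were called with the antennal sum in the model, against 431 without it. With the log2 sum of the muscle markers in the model the mt:ND4L difference was -0.93 (adjusted p = 0.0165, edgeR). Of the 8 neuronal markers, 2 were called lower in the selective strains, with sums of 4864 to 6346 CPM against 4674 to 7796 CPM. Of 5 glial markers 2, moody and loco, were called higher, and the other 3 had log2 fold changes below 0. The median of the 5 was -0.08, with sums of 801 to 1079 CPM against 614 to 1152 CPM. The part of neuronal and glial content in the result was not tested.

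**Figure D4:**
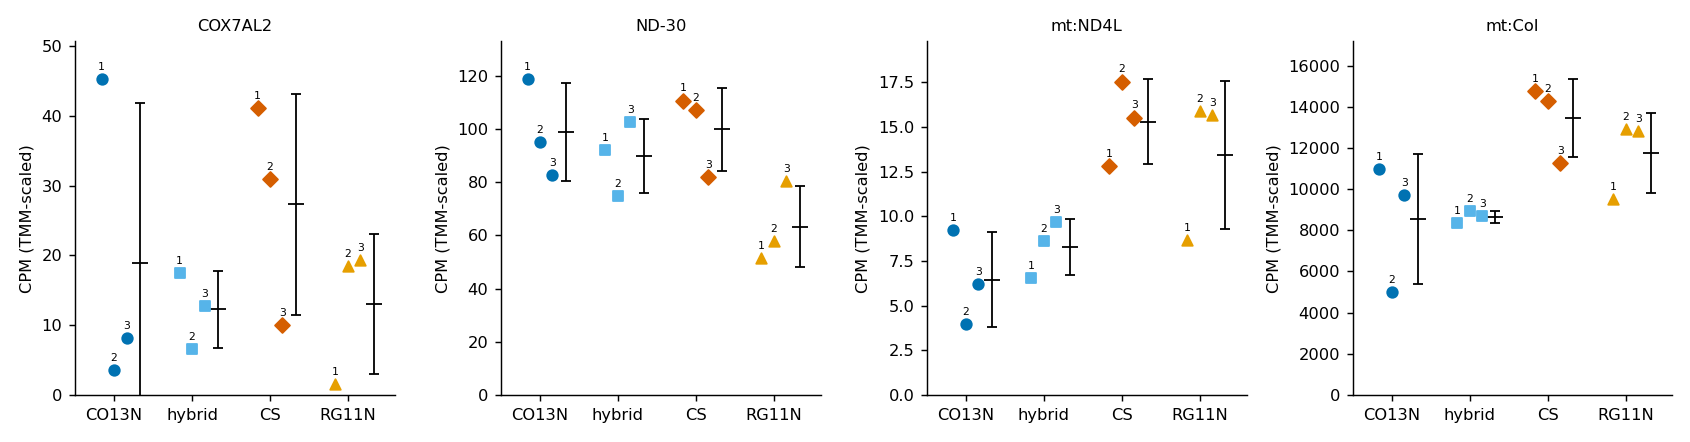
TMM-scaled CPM of COX7AL2, ND-30, mt:ND4L and mt:CoI in each library, labelled by replicate number, with the strain mean and SD of 3 libraries (bars cut at 0). mt:ND4L lies between 3.9 and 9.7 CPM in the selective strains, and ND-30 is lowest in RG11N, at 51.4 to 80.4 CPM.

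The abundant members of the same genome had smaller fold changes that did not pass the adjusted threshold. mt:CoI, the catalytic subunit of complex IV, was 10998, 4986 and 9702 CPM in CO13N and 8349, 8936 and 8705 CPM in the hybrid. The CS libraries gave 14775, 14295 and 11280 CPM and the RG11N libraries 9509, 12918 and 12846 CPM. The hybrid libraries lay below every CS and RG11N library, while CO13N replicates 1 and 3 lay above RG11N replicate 1. The difference was -0.55 ± 0.16 (adjusted p = 0.0824, edgeR). mt:Cyt-b differed by -0.46 ± 0.18 (adjusted p = 0.205, edgeR) and mt:ATPase6 by -0.61 ± 0.21 (adjusted p = 0.149, edgeR). The smallest difference was that of mt:CoII, -0.31 ± 0.195 (adjusted p = 0.478, edgeR).

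The pairs of strains behind the averaged comparison share libraries and are given side by side. In CO13N minus CS, 3.14% of all genes were called, 1.35% as lower, and mt:ND4L was the only member, at -1.24 ± 0.325 (adjusted p = 0.0413, edgeR). The 3 CO13N libraries of mt:ND4L lay below the 3 CS libraries. The call ended without CO13N replicate 2, CO13N replicate 3, CS replicate 2 or CS replicate 3, with adjusted p of 0.233, 0.119, 0.133 and 0.0731 in edgeR. It also ended with the antennal sum in the model, at -0.97 with an adjusted p of 0.484 in edgeR. Over all genes, 137 were called in that fit, against 345 without the antennal sum. The median log2 fold change of the 13 mitochondrially encoded members was -0.70, with 12 below 0 and 11 lower at an unadjusted p under 0.05, against 6.52% of all genes. That count of 11 was 1 with the antennal sum in the model, 5 with the replicate block and 7 with only these strains fitted. It was 4 without CS replicate 1, 6 without CS replicate 2, and 7 without CO13N replicate 2 or 3, any hybrid library or RG11N replicate 3. The median was -0.46 without CO13N replicate 2. No nuclear member was called by edgeR or DESeq2, and 1 was lower at an unadjusted p under 0.05. The median of the nuclear members was -0.13, with 55 of 72 below 0. It was 0.007 without CS replicate 1, -0.326 without CO13N replicate 1, -0.325 without CS replicate 3 and -0.02 with the muscle sum.

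In CO13N minus RG11N, where 4.1% of genes were called, no member was called, and 8 nuclear and 4 mitochondrially encoded members had an unadjusted p under 0.05 in edgeR, as did 16.5% of all genes. DESeq2 called 1 nuclear and 1 mitochondrially encoded member there, among 838 genes called in all, against 451 by edgeR. In hybrid minus CS, with 0.973% of genes called, and in hybrid minus RG11N, with 4.47%, no member was called either. In hybrid minus CS, 0 of 72 nuclear and 4 of 13 mitochondrially encoded members had an unadjusted p under 0.05, against 9.09% of all genes. That count of 4 was 0 with the antennal sum, 1 without hybrid replicate 1 and 10 with only these strains fitted. In hybrid minus RG11N, 4 nuclear and 1 mitochondrially encoded member had an unadjusted p under 0.05, against 17.3% of all genes. DESeq2 called none in these pairs. The median log2 fold changes of the mitochondrially encoded members were -0.46, -0.59 and -0.30 in these 3 pairs, and those of the nuclear members 0.20, -0.17 and 0.11.

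These medians moved with single libraries and with the muscle sum. In CO13N minus RG11N the mitochondrially encoded median was -0.19 without CO13N replicate 2, and the nuclear median was 0.015 without CO13N replicate 1, 0.02 without RG11N replicate 1 and 0.06 with the muscle sum in the model. In hybrid minus CS the nuclear median turned to 0.03 with the muscle sum, and it was -0.07 without CS replicate 1 and -0.33 without CS replicate 3. In hybrid minus RG11N the nuclear median turned to -0.03 without RG11N replicate 1 and was -0.004 without hybrid replicate 3. The mitochondrially encoded median there was -0.12 without RG11N replicate 2 and -0.51 without RG11N replicate 1.

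Between the selective strains themselves, hybrid minus CO13N, 0.255% of genes were called and no member was, by edgeR or DESeq2. Unadjusted, 1 nuclear member had a p under 0.05 in edgeR, against 4.67% of all genes. The median of the mitochondrially encoded members was 0.14, and -0.135 without CO13N replicate 2. That of the nuclear members was -0.07, and 0.14 without CO13N replicate 1, 0.016 without hybrid replicate 2 and 0.02 with the muscle sum in the model. Neither sign held across libraries.

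Of the 7 comparisons, that of the promiscuous strains had the largest share of genes called, 5.77% in RG11N minus CS, 2.83% as lower. Most nuclear members had log2 fold changes below 0. Their median log2 fold change was -0.28, against 0 for all tested genes, and 66 of 72 were below 0. The median was -0.13 without RG11N replicate 1, -0.155 without CS replicate 1 and -0.45 without CS replicate 3. Yet 1 of 72 members, or 1.39%, was called, a share under that of all genes called lower. At an unadjusted p under 0.05, 15 nuclear members were lower and 0 higher, against 9.29% of all genes lower. The count of 15 was 6 without RG11N replicate 1, 7 without CS replicate 1 or 2, and 33 without CS replicate 3. DESeq2 called 5 nuclear members, among 1048 genes called in all, against 634 by edgeR. No mitochondrially encoded member was called by edgeR or DESeq2, 0 had an unadjusted p under 0.05 in edgeR, and their median was -0.20, or -0.05 without RG11N replicate 1 and -0.02 with the muscle sum in the model.

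The member called was ND-30, a core subunit of the peripheral arm of complex I. It lies on chromosome arm 3L at 3158485 to 3159578 on the minus strand (dm6). Its level was 118.7, 95.2 and 82.6 CPM in CO13N and 92.2, 74.8 and 102.5 CPM in the hybrid. Values were 110.7, 107.0 and 82.1 CPM for CS and 51.4, 57.8 and 80.4 CPM for RG11N. Every RG11N library was below every CS library, though RG11N replicate 3 and CS replicate 3 were close. The difference was -0.66 ± 0.185 on the log2 scale (adjusted p = 0.0416, edgeR). The call was lost without any of CO13N replicate 2, CS replicates 1 and 2, hybrid replicates 1 and 3, or RG11N replicates 1 and 2, with adjusted p up to 0.178 in edgeR. It also ended with the replicate block (adjusted p = 0.0594, edgeR), with a filter of 5 CPM in 3 libraries (0.0508), with only these strains fitted (0.0929) and with the antennal sum in the model (0.0945). Over all genes, 466 were called with the antennal sum, against 634 without it.

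The muscle markers also ran lower in RG11N than in CS, with sums of 1860 to 8209 CPM against 4585 to 19213 CPM, and 17 of 19 had a log2 fold change below 0, none of them called. The neuronal markers ran the other way, at 7018 to 7796 CPM against 4674 to 6196 CPM, and 4 of 8 were called higher. Of 5 glial markers 2, loco and Gs2, were called lower, and the glial sums were 614 to 790 CPM in RG11N against 1042 to 1152 CPM in CS, with no overlap. With the muscle sum in the model, the median of the nuclear members was -0.08 with 47 of 72 below 0, and ND-30 stood at -0.47 (adjusted p = 0.127, edgeR). The part of neuronal and glial content in these values was not tested.

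By complex, the median log2 fold change in RG11N minus CS was -0.28 over 34 members of complex I, -0.41 over 6 of complex II, -0.25 over 7 of complex III, -0.21 over 12 of complex IV and -0.31 over 13 of complex V. SdhB was 202, 182 and 155 CPM in CS and 134, 144 and 117 CPM in RG11N. SdhA, the flavoprotein that oxidises succinate, was 449, 306 and 222 CPM in CS and 246, 289 and 222 CPM in RG11N. The SdhB libraries of these strains did not overlap, and those of SdhA did. ND-75, the largest subunit of complex I, was 344, 274 and 193 CPM in CS and 215, 277 and 144 CPM in RG11N, a difference of -0.35 ± 0.26 (adjusted p = 0.526, edgeR).

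Long members were low beside short ones in RG11N replicate 3. Relative to each gene's mean over libraries, the 18 abundant nuclear members with at least 1200 bases of exon were 0.276 log2 units lower there than the 44 shorter ones. In the other 11 libraries the same difference ran from -0.08 to 0.10, while over all tested genes it was -0.098 in RG11N replicate 3 and -0.13 to 0.167 in the others. The length boundary was chosen after the data were seen, and its part in the comparisons with RG11N was not tested.

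The balance among the mitochondrially encoded transcripts was described by each gene's share of the summed counts of the 13, with genes chosen after the values were seen and no test. mt:ND1 took 4.393 to 4.544% in CS and 2.812 to 4.081% in the other strains. mt:CoIII took 17.23 to 17.95% in CS and 18.75 to 21.22% elsewhere. mt:Cyt-b took 14.7 to 14.87% in RG11N and 15.42 to 16.71% elsewhere. For these genes 1 strain stood outside the range of the others.

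The share of mt:ND4L was 0.0234 to 0.0305% for CO13N and 0.0283 to 0.0369% for the hybrid, while CS gave 0.0318 to 0.0521% and RG11N 0.035 to 0.0451%. The CO13N libraries lay below those of CS on this scale too. They also lay below those of RG11N, whereas in CPM CO13N replicate 1 was above RG11N replicate 1. The hybrid shares overlapped those of every other strain. Against its neighbour mt:ND4, there were 6.15, 6.41 and 4.70 counts of mt:ND4L for each 1000 of mt:ND4 for CO13N and 5.92, 6.65 and 7.74 for the hybrid. CS gave 6.67, 8.45 and 10.38, and RG11N 8.45, 9.06 and 10.09.

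**Figure D5:**
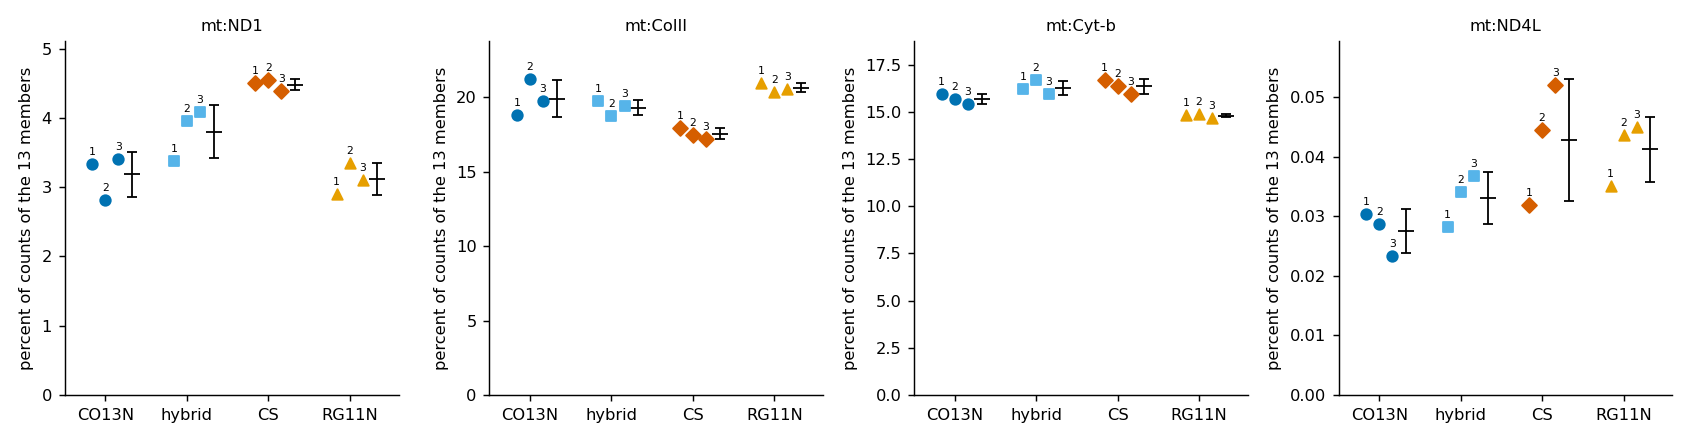
Share of 4 mitochondrially encoded genes in the summed counts of the 13, in percent, for each library labelled by replicate number, with the strain mean and SD of 3 libraries. CS stands above the other strains for mt:ND1 and below them for mt:CoIII, and RG11N stands below the others for mt:Cyt-b.

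Genes that work beside the members were read from lists of other subunits, assembly factors, carriers, the tricarboxylic acid cycle, mitochondrial DNA expression, regulators and mitochondrial ribosomal RNA. Of 69 genes found, 62 were tested, and edgeR called none in any of the 7 comparisons. The unadjusted counts were 5 in the averaged comparison and 2 to 8 in the pairs, and DESeq2 called 0 to 2 in each comparison.

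Among the subunits that the naming rule missed, blw had a mean of 544.1 CPM per kb, next to 537.6 for its partner ATPsynbeta. The list of other subunits held 9 tested genes. All had a log2 fold change below 0 in RG11N minus CS, with a median of -0.32. They include Cyt-c1, the cytochrome of complex III, at -0.57 ± 0.215 (adjusted p = 0.157, edgeR), and sta, which encodes a ribosomal protein and was listed in error. The 16 genes of the tricarboxylic acid cycle, which feeds electrons to complexes I and II, had a median of -0.27 in the same comparison, with 14 below 0.

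mt:lrRNA, the large ribosomal RNA of the mitochondrion, differed by -0.62 ± 0.24 between selective and promiscuous strains (adjusted p = 0.231, edgeR). It ran from 26307 CPM in CO13N replicate 2 to 112760 CPM in RG11N replicate 2, so CO13N replicate 2 was lowest for this RNA as it was for all 12 abundant mitochondrially encoded members. TFAM, which packages and helps transcribe mitochondrial DNA, was 24.2, 25.4 and 22.3 CPM in CO13N and 24.1, 25.6 and 22.2 CPM in the hybrid. CS had 18.1, 19.1 and 21.0 CPM, and RG11N 15.4, 18.0 and 17.1 CPM. Every selective library was above every promiscuous library, at 0.41 ± 0.125 (adjusted p = 0.0785, edgeR), which missed the threshold. TFAM and mt:lrRNA were named after their values were seen.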

How the data were processed

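The authors deposited a table of raw counts by FlyBase gene identifier for the 12 libraries. Subread and dm6 are named in the submitters' processing notes, and their versions and settings are not given in the sources used here. RNA was polyA-selected, per the labels. Strandedness and the treatment of reads on 2 genes are not given. Symbols and exons came from the Ensembl BDGP6 annotation, the dm6 assembly, which named 17710 of 17807 identifiers.

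Counts were fitted in edgeR 4.0.16 (R 4.3.3, limma 3.58.1) by its robust quasi-likelihood F test after TMM scaling, on the 10996 genes that filterByExpr kept (minimum count 10). All 4 strains entered 1 model, which left 8 residual degrees of freedom. P-values were adjusted by Benjamini-Hochberg over all tested genes, and calls have an adjusted p under 0.05. Of the members, 72 nuclear and 13 mitochondrially encoded genes passed the filter. A ± beside a log2 value is an approximate standard error from the F statistic. Floors of 3 counts cover counting error only. DESeq2 1.42.0, RLE factors, other filters, library sizes without mitochondrial genes, a replicate block, fits to the compared groups alone, marker sums as covariates and each library left out were alternatives. The pipeline was tested on simulated data.

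The members and lists were chosen with earlier results of these data known. Named genes are all mitochondrially encoded members, called members, the highest and lowest per kilobase in each complex, core catalytic subunits and, from other lists, called genes; others, such as those rising with muscle markers, were named after their values were seen. Python 3.11.15, pandas 2.3.3, numpy 2.4.6 and matplotlib 3.10.9 made the summaries and figures.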

Additional observations from a re-analysis of the deposited data

How the results depend on the processing

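The log2 fold change of mt:ND4L stayed below 0 under every alternative run in selective minus promiscuous and in CO13N minus CS. That of ND-30 did so in RG11N minus CS. Medians over the members were less stable. The nuclear median changed sign under some alternative in selective minus promiscuous, CO13N minus CS, hybrid minus CS, hybrid minus RG11N and hybrid minus CO13N. The mitochondrially encoded median did so in hybrid minus CO13N. In selective minus promiscuous, the mitochondrially encoded members called were 6 by DESeq2, 2 with the muscle sum as a covariate, 0 with the antennal sum and 0 to 2 with a library left out, against 1. In CO13N minus CS they were 3 by DESeq2, 0 with the replicate block (mt:ND4L at an adjusted p of 0.0575), 0 with only the groups compared (0.0777), 0 with the antennal sum and 0 to 1 with a library left out, against 1. In CO13N minus RG11N, against 0 in each genome, DESeq2 and the muscle sum gave 1 nuclear and 1 mitochondrially encoded member, no filter gave 1 nuclear member, and leaving out a library gave 0 to 1. In hybrid minus CS the mitochondrially encoded count was 3 with only the groups compared and 0 to 1 with a library left out, and in hybrid minus RG11N the nuclear count was 0 to 1, against 0. In RG11N minus CS the nuclear count, 1, was 5 by DESeq2, 2 with no filter, 2 with the replicate block, 0 with a filter of 5 CPM in 3 libraries (ND-30 at an adjusted p of 0.0508), 0 with only the groups compared, 0 with the muscle sum, 0 with the antennal sum, and 0 to 12 with a library left out, 12 without CS replicate 3. Leaving out a library gave 4 to 32 nuclear and 0 to 4 mitochondrially encoded members rising with muscle markers, against 16 and 0. Over all genes, DESeq2 called 803 against 431 by edgeR in selective minus promiscuous, and 657 against 345 in CO13N minus CS. The counts were 838 against 451 in CO13N minus RG11N and 1048 against 634 in RG11N minus CS. In RG11N minus CS without CS replicate 3, edgeR called 756 genes in all. The causes of these moves were not tested.

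Over 18 same-numbered pairs of libraries the correlation of deviations from strain means ran from -0.089 to 0.209, with a median of 0.0245. Of these, 2 exceeded 0.1. Over 36 pairs with different numbers it ran from -0.128 to 0.096, with a median of -0.027. These values do not settle whether the numbers mark pairs. With the block ND-30 in RG11N minus CS had an adjusted p of 0.0594, and mt:ND4L in the averaged comparison one of 0.0262. With library sizes that leave out mitochondrial genes, the summed nuclear level of RG11N was 11499 CPM against 10169, and the summed mitochondrially encoded level of the hybrid 27137 CPM against 25181. The 15 scarce nuclear members had 17 to 291 counts in all. Of these, 10 passed the filter, and none was called in any comparison in the main edgeR fit. Whether strain differences in such scarce genes could be detected at this depth was not tested.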
